A study of Mus musculus with 14 samples.

Results

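The heat shock chaperones are the proteins that bind unfolded chains in the cytosol and in mitochondria and help them fold. The members described here are 10 genes listed by name and chosen with earlier results of these data known. The list holds the HSP70 genes Hspa8 and Hspa1b, the HSP110 gene Hsph1 and the J-domain genes Dnaja1, Dnajb1 and Dnajb4. It also holds the HSP90 gene Hsp90aa1, the mitochondrial chaperonin genes Hspd1 and Hspe1, and Zfand2a. The members were found by matching the Ensembl IDs of the count tables to mouse symbols, and all 10 of the 39179 gene IDs were present and passed the filter on low counts. RNA was sequenced from splenic follicular B cells of C57BL/6 mice, purified with magnetic beads, in 7 groups of 2 libraries (n = 2). The genotypes were relb-/-crel-/- (dbko), crel-/- (cko) and wild type (wt). The products of Relb and Rel are RelB and c-Rel, subunits of the transcription factor NF-kB. The dbko and cko cells were taken at 0h and 6h, and the wt cells at 0h, 6h and 27h, of culture with 50 ng/ml BAFF, a survival factor of mature B cells. The labels do not say what part of either gene the alleles remove, nor that both libraries of a group are from different mice, so the p-values speak for the spread among these 14 libraries, which may be technical. No culture without BAFF was analysed here, so BAFF and time in culture cannot be told apart.

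In the textbook view, HSP70 binds an unfolded chain, J-domain proteins bring the chain and switch on the HSP70 ATPase, and HSP110 proteins release the nucleotide so that the cycle can start again. HSP90 takes over folded or nearly folded clients, and in mitochondria the HSP60 chamber encoded by Hspd1 is closed by the HSP10 lid encoded by Hspe1. Many of these genes are switched on together by heat shock factors, which bind the heat shock element, a row of alternating GAA and TTC units. In lymphocytes, as in other cells, warming and protein damage are known to raise them.

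In GENCODE M21 on GRCm38 the HSP70 and HSP110 genes are Hspa8 (ENSMUSG00000015656) at chr9:40800984-40810087 on the plus strand, Hspa1b (ENSMUSG00000090877) at chr17:34956436-34959238 on the minus strand and Hsph1 (ENSMUSG00000029657) at chr5:149614287-149636376 on the minus strand. The J-domain genes are Dnaja1 (ENSMUSG00000028410) at chr4:40722150-40737149 on the plus strand, Dnajb1 (ENSMUSG00000005483) at chr8:83608193-83612653 on the plus strand and Dnajb4 (ENSMUSG00000028035) at chr3:152178511-152210302 on the minus strand. The others are Hsp90aa1 (ENSMUSG00000021270) at chr12:110690605-110702728 on the minus strand, Hspd1 (ENSMUSG00000025980) at chr1:55077835-55088243 on the minus strand, Hspe1 (ENSMUSG00000073676) at chr1:55088132-55091307 on the plus strand and Zfand2a (ENSMUSG00000053581) at chr5:139471211-139484549 on the minus strand. All are protein-coding genes.

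Gene counts summed to 10497802 to 11888765 per library, and all levels are in CPM (counts divided by the TMM-scaled library size, in the usual CPM unit), with replicate 1 before replicate 2. Reads with more than 1 place in the genome were 38.77 to 49.85% of the reads tallied and lie outside the gene counts. Rel stood at 40.0 and 52.3 CPM in dbko and 58.3 and 52.4 CPM in cko at 0h, against 633 and 621 CPM in wt. Relb stood at 53.0 and 65.6 CPM in dbko and 195 and 168 CPM in cko at 0h, against 115 and 117 CPM in wt, so Relb transcript was reduced and not absent in dbko. B cell markers summed to 6290 to 12052 CPM per library, with none at 0 in both libraries of a group. Erythroid markers summed to 1764 and 856 CPM in dbko and 102 and 109 CPM in cko at 0h, against 26.2 and 31.6 CPM in wt, so the 2 dbko libraries stand apart from the rest and from each other. Neutrophil markers summed to 20.7 and 4.89 CPM in dbko at 0h and to at most 3.96 CPM in any other library, and T cell markers to 55.8 to 103.7 CPM in all libraries. Dendritic cell markers summed to 94.3 and 91.3 CPM in dbko, 39.2 and 38.8 CPM in cko and 34.0 and 32.8 CPM in wt at 0h, and plasma cell markers, mostly Irf4, to 1907 and 2764 CPM in dbko, 2701 and 2769 CPM in cko and 2825 and 2775 CPM in wt.

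The promoters of the members show which of them carry heat shock element letters. RefSeq windows on GRCm38.p6, from 250 bases before to 50 bases after a start, were at hand for 8 of the 10 members, all but Hspa8 and Hsp90aa1, in 14 windows. The letters searched on both strands were GAANNTTCNNGAA or TTCNNGAANNTTC for 3 neighbouring units, and GAANNTTC or TTCNNGAA for 2 units, so that each 3-unit match also holds 2-unit matches. A 3-unit match lay in windows of 3 members, Hsph1, Hspd1 and Hspe1, against 0.66% of the 27025 genes of the table. A 2-unit match lay in windows of 7 of the 8, all but Dnajb1, against 16.97% of genes. The stretches shown hold 1 match of each such member, 5′ to 3′ on the strand of the gene, with the units in capitals.
Hspe1, chr1:55088053-55088082, plus strand: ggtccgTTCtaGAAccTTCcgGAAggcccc
Hspd1, chr1:55088053-55088082, minus strand: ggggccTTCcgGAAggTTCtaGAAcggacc
Hsph1, chr5:149636287-149636316, minus strand: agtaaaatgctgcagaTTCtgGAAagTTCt
Dnaja1, chr4:40722333-40722362, plus strand: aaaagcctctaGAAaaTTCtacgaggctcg
Dnajb4, chr3:152193841-152193870, minus strand: ttcgttcgctgTTCtaGAAagtacagagac
Zfand2a, chr5:139484669-139484698, minus strand: ttgcctgactgTTCtaGAAaataggcgggg
Hspa1b, chr17:34959324-34959353, minus strand: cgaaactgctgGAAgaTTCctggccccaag
Hspd1 and Hspe1 lie head to head on chromosome 1 and overlap by 112 bases in the GENCODE M21 annotation, and their stretches are the same 30 bases read from opposite strands, with 4 units in a row. The Hspd1 and Hspe1 stretch lies in an annotated UTR exon of Hspd1, that of Hsph1 and that of Dnajb4 in UTR exons of their own genes, and that of Dnaja1 in an exon of Dnaja1 and of Gm6297. Those of Zfand2a and Hspa1b lie in no annotated exon. A match is a run of letters and shows no binding.

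Several members share sequence with other genes, and Hspa1b has a near copy, Hspa1a. The 300-base promoter windows of both genes differ at 4 bases, and 62.31% of the 50-base windows of the Hspa1b transcript also occur in transcripts of other genes, mostly Hspa1a. The 250 bases before the start of Hspa1b, chr17:34959239-34959488 on the minus strand, are shown with their 2-unit match in capitals.
Hspa1b: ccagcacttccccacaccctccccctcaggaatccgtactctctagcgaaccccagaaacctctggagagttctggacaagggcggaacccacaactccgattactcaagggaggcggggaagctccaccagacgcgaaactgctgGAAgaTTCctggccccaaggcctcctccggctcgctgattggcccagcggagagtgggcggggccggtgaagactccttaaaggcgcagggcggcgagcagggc
Shared windows made up 74.84% of the Hspa8 transcript, 58.51% of Hsp90aa1, 44.83% of Hspe1, 44.78% of Hspd1 and 28.76% of Dnaja1, against 0.45% of Zfand2a and 0.44% of Dnajb1. Reads of shared stretches can lie outside the gene counts, so the counts of members with many shared windows can be partial. Hsph1 and Dnajb4 had no shared window in the principal transcript. Their other exons, near matches and copies outside annotated transcripts were not searched.

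The chaperone transcripts stood highest at the start of culture, highest of all in cells lacking only c-Rel, and lower at 6h in every genotype. For all 10 members the group with the highest mean was cko at 0h, and both of its libraries lay above all 12 other libraries. Summed over the members, 0.369 and 0.359% of the gene counts in dbko, 0.794 and 0.824% in cko and 0.403 and 0.425% in wt lay in these genes at 0h. At 6h the sums were 0.081 and 0.095% in dbko, 0.067 and 0.076% in cko and 0.086 and 0.094% in wt, and at 27h 0.143 and 0.149% in wt.

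**Figure D1:**
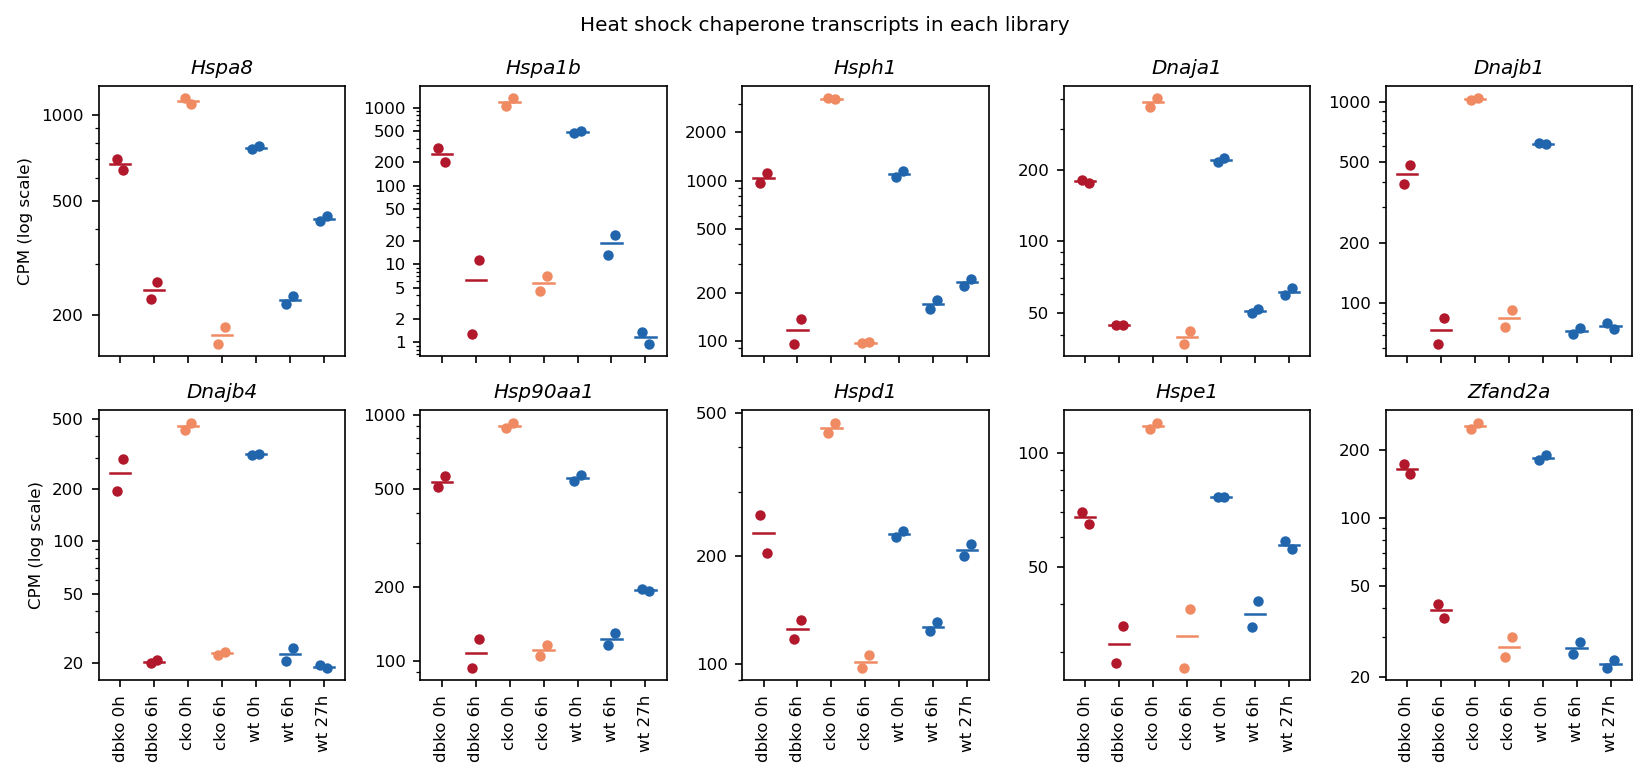
CPM of each member (log axis, 1 panel per gene) in every library; points are the 2 libraries of a group and the line is their mean. In each panel both cko 0h points lie above all 12 other libraries, and the 6h groups lie below the 0h groups.

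Hsph1, whose HSP110 product recharges HSP70, had the highest CPM per kb of the members in cko at 0h, with shared sequence not taken into account. It stood at 964 and 1108 CPM in dbko, 3257 and 3232 CPM in cko and 1054 and 1149 CPM in wt at 0h. At 6h it stood at 96.0 and 137 CPM in dbko, 97.1 and 98.3 CPM in cko and 159 and 179 CPM in wt, and in wt at 27h at 219 and 245 CPM. The cko 0h libraries are the only ones above 1149 CPM, while dbko and wt overlap at 0h. Divided by the length of the principal transcript, the mean level of Hsph1 was 272 CPM per kb in dbko, 853 in cko and 290 in wt at 0h.

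Hspa8, the HSP70 that cells make without stress, had the smallest relative fall of the cytosolic members. Its levels were 704 and 644 CPM in dbko, 1146 and 1096 CPM in cko and 758 and 777 CPM in wt at 0h. At 6h they were 226 and 260 CPM in dbko, 158 and 182 CPM in cko and 217 and 233 CPM in wt. The wt cells had 426 and 442 CPM at 27h. The wt 27h libraries lie between the 0h and 6h libraries without overlap.

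Hspa1b, the stress-inducible HSP70, spanned the widest range of the 10 genes. It stood at 305 and 204 CPM in dbko, 1047 and 1314 CPM in cko and 471 and 506 CPM in wt at 0h. At 6h it stood at 1.29 and 11.3 CPM in dbko, 4.57 and 6.95 CPM in cko and 13.1 and 23.6 CPM in wt, and at 27h in wt at 1.36 and 0.958 CPM, which are 16 and 12 reads. The 2 dbko 6h libraries lie on either side of both cko libraries. Its near copy Hspa1a followed the same order of groups at 0h, with 173 and 125 CPM in dbko, 783 and 855 CPM in cko and 308 and 338 CPM in wt.

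The J-domain genes Dnaja1, Dnajb1 and Dnajb4, whose products load HSP70, shared the order of genotypes at 0h. Dnaja1 stood at 182 and 178 CPM in dbko, 372 and 405 CPM in cko and 218 and 225 CPM in wt at 0h. At 6h its levels were 44.3 and 44.2 CPM in dbko, 36.8 and 41.8 CPM in cko and 49.9 and 51.8 CPM in wt. The wt cells had 59.1 and 63.4 CPM at 27h. For Dnaja1 no 2 groups overlap at 0h or at 6h.

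Dnajb1, the main J-domain partner of inducible HSP70, stood at 391 and 486 CPM in dbko, 1023 and 1039 CPM in cko and 622 and 614 CPM in wt at 0h. At 6h its levels were 63.1 and 84.7 CPM in dbko, 76.2 and 92.5 CPM in cko and 70.8 and 75.6 CPM in wt, and at 27h 79.6 and 74.9 CPM in wt. All 8 later libraries of Dnajb1 lay between 63.1 and 92.5 CPM, with the groups overlapping. Dnajb4 stood at 195 and 296 CPM in dbko, 434 and 479 CPM in cko and 313 and 318 CPM in wt at 0h. All 8 later libraries of Dnajb4 lay between 18.7 and 24.3 CPM.

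Hsp90aa1, the inducible cytosolic HSP90, stood at 507 and 561 CPM in dbko, 879 and 927 CPM in cko and 536 and 567 CPM in wt at 0h. At 6h it stood at 93.3 and 122 CPM in dbko, 105 and 116 CPM in cko and 116 and 130 CPM in wt, and at 27h at 195 and 192 CPM in wt. The dbko and wt libraries overlap at both 0h and 6h.

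The mitochondrial pair fell least. Hspd1 stood at 260 and 203 CPM in dbko, 439 and 469 CPM in cko and 226 and 233 CPM in wt at 0h. At 6h it stood at 117 and 133 CPM in dbko, 97.2 and 105 CPM in cko and 123 and 131 CPM in wt, and at 27h at 199 and 215 CPM in wt. The wt 27h level of Hspd1 lies just under its wt 0h level. Hspe1 stood at 70.2 and 65.2 CPM in dbko, 116 and 120 CPM in cko and 76.6 and 76.7 CPM in wt at 0h. Its levels at 6h were 28.1 and 35.0 CPM in dbko, 27.2 and 38.9 CPM in cko and 34.8 and 40.8 CPM in wt, and at 27h 58.6 and 55.8 CPM in wt. The 3 genotypes overlap for Hspe1 at 6h.

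Zfand2a encodes AIRAP, a zinc finger protein of the proteasome that arsenite induces, and it was the member with the highest 6h level in dbko relative to the other genotypes. It stood at 173 and 156 CPM in dbko, 246 and 263 CPM in cko and 179 and 189 CPM in wt at 0h. At 6h it stood at 42.1 and 36.4 CPM in dbko, 24.5 and 29.8 CPM in cko and 25.3 and 28.4 CPM in wt, and at 27h at 21.8 and 23.7 CPM in wt. Both dbko libraries lie above the cko and wt libraries at 6h.

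The order of the group means was cko, wt, dbko at 0h for 9 members, while for Hspd1 dbko and wt stood side by side at 232 and 229.6 CPM. The lowest group was cko at 6h for 4 members, wt at 27h for 3, dbko at 6h for 2 and wt at 6h for 1. Across the 7 group means, the 45 pairs of members had Pearson correlations of 0.73 to 1.00 with a median of 0.96, a description of means that share their libraries. The lowest, 0.73, was that of Hspa1b and Hspd1.

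At 0h the crel-/- cells held more transcript of the chaperones than wt cells. Of the 10 members 6 were higher in cko, where 0.918% of the 12630 genes tested were called higher, and no member was called lower, where 0.578% were. All 10 had an unadjusted p under 0.05 in edgeR's test, and DESeq2 called 9 among 373 genes in all. Here and below, the shares of all genes are those of edgeR's adjusted calls. No such share stands beside counts by unadjusted p or by DESeq2, so those counts have no background to be read against. The members were chosen with earlier results of these data known, so these counts describe them and do not test the set. The 6 called by edgeR were Hsph1 by 1.56 ± 0.16 on the log2 scale (adjusted p = 0.000224), Hspd1 by 0.98 ± 0.13 (0.00149), Dnaja1 by 0.81 ± 0.10 (0.000899), Dnajb1 by 0.74 ± 0.15 (0.0282), Hsp90aa1 by 0.71 ± 0.13 (0.0183) and Hspa8 by 0.55 ± 0.12 (0.0362), each a log2 fold change ± SE with its adjusted p from edgeR's quasi-likelihood test. On the linear scale Hsph1 was 2.95-fold and Hspd1 1.98-fold higher in cko. The other 4 had estimates of 1.27 ± 0.50 for Hspa1b (adjusted p = 0.298), 0.62 ± 0.15 for Hspe1 (0.0682), 0.53 ± 0.16 for Dnajb4 (0.131) and 0.47 ± 0.12 for Zfand2a (0.0751), and all 10 were above 0 in lane 7 and in lane 8. The median over the members was 0.72, beside -0.02 over all genes tested.

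Calls of Hsph1, Dnaja1 and Hspd1 held whichever of the 4 libraries was left out, with adjusted p of at most 0.0463. Those of Dnajb1, Hsp90aa1 and Hspa8 ended without any single one of them. Without cko 0h replicate 1 the adjusted p was 0.18 for Dnajb1, 0.118 for Hsp90aa1 and 0.263 for Hspa8, and without cko 0h replicate 2 it was 0.228, 0.192 and 0.211 in the same order of genes. Without wt 0h replicate 1 it was 0.266, 0.248 and 0.357, and without wt 0h replicate 2 0.276, 0.158 and 0.291. In this comparison 5 of 11 tested macrophage markers were lower, at summed levels of 39.4 and 35.0 CPM in cko against 137 and 141 CPM in wt, and 3 of 11 erythroid markers were higher, at 102 and 109 CPM in cko against 26.2 and 31.6 CPM in wt. The part of these markers in the chaperone difference was not tested. In bulk RNA fewer cells of a type and less RNA per cell cannot be told apart.

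The relb-/-crel-/- cells did not show this excess at 0h. No member was called in dbko against wt by edgeR's quasi-likelihood test, where 7.1% of genes were called higher and 4.55% lower, 3 members had an unadjusted p under 0.05, and DESeq2 called 2. Estimates ran from -0.94 ± 0.50 for Hspa1b to 0.01 ± 0.12 for Hspd1, with Hsph1 at -0.09 ± 0.16 (adjusted p = 0.758) and Hsp90aa1 at -0.05 ± 0.13 (0.853). Dnajb1 at -0.49 ± 0.15 (adjusted p = 0.0504) and Dnaja1 at -0.30 ± 0.10 (0.0608) came nearest to a call. With a replicate block in edgeR's test Dnajb1 was called, at -0.50 (adjusted p = 0.0287). With a library left out the estimates ran from -0.66 to -0.35 for Dnajb1 and from -0.70 to -0.10 for Dnajb4. Both were called without dbko 0h replicate 2. Beside this, 11 of 11 tested erythroid, 5 of 6 dendritic cell and 2 of 11 macrophage markers were higher in dbko than in wt. Of 19 immediate early genes 9 were lower and none higher. Their part in the chaperone values was not tested.

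Set directly against cko at 0h, dbko had lower levels of all 10 members, where 2.39% of genes were called lower and 6.63% higher. The largest differences among them were those of Hspa1b at -2.21 ± 0.52 (adjusted p = 0.0287), Hsph1 at -1.65 ± 0.16 (0.000101), Dnajb1 at -1.23 ± 0.15 (0.000564) and Dnaja1 at -1.11 ± 0.10 (5.82e-05). Hspd1 stood at -0.97 ± 0.13, Dnajb4 at -0.90 ± 0.16, Hspe1 at -0.80 ± 0.15, Hsp90aa1 at -0.76 ± 0.13, Hspa8 at -0.73 ± 0.12 and Zfand2a at -0.63 ± 0.12. This comparison and that of cko with wt share the cko 0h libraries. Calls of Hspa8, Hsph1, Dnaja1, Dnajb1 and Hspd1 held without any single library. Without cko 0h replicate 2 the adjusted p was 0.15 for Hspa1b, 0.0563 for Dnajb4, 0.0534 for Hsp90aa1, 0.0752 for Hspe1 and 0.0782 for Zfand2a. Without cko 0h replicate 1 it was 0.0946 for Hspa1b and 0.0548 for Hspe1, and without dbko 0h replicate 1 it was 0.0725 for Hspa1b. Beside these differences, 11 of 11 tested erythroid markers and 8 of 11 macrophage markers were higher in dbko than in cko, with erythroid sums of 1764 and 856 CPM in dbko against 102 and 109 CPM in cko. Their part in the chaperone differences was not tested, and with both dbko replicate 1 libraries left out all 10 calls remained.

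**Figure D2:**
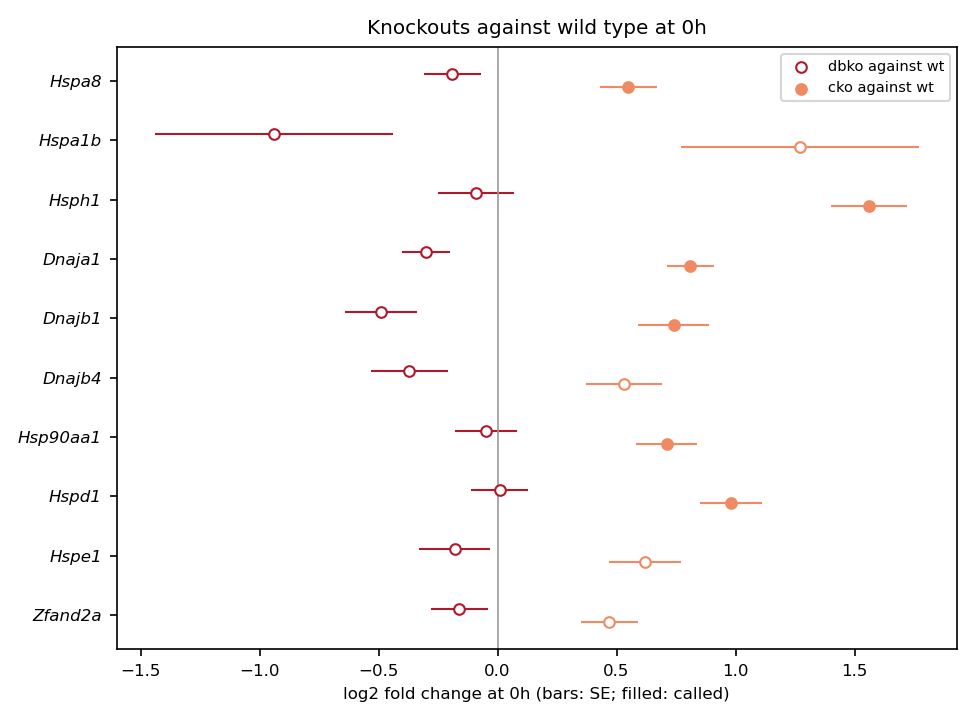
Log2 fold change of each member at 0h in dbko and in cko against wt (x axis), with bars for the SE and filled points for adjusted p under 0.05. The cko estimates run from 0.47 to 1.56, and the dbko estimates from -0.94 to 0.01, none of them called.

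Over 6h of culture every member fell in every genotype. All 10 were lower at 6h than at 0h in dbko, in cko and in wt, where 20.3%, 20.1% and 23.5% of genes were called lower and 19.3%, 21.8% and 22.6% higher, and no such call depended on any single library. The median log2 fold change over the members was -2.19 in dbko, -3.26 in cko and -2.43 in wt, beside 0.03, 0.05 and -0.00 over all genes tested. In wt the level left at 6h was 3.75% of the 0h mean for Hspa1b, 7.12% for Dnajb4, 11.84% for Dnajb1, 14.58% for Zfand2a and 15.37% for Hsph1. It was 22.29% for Hsp90aa1, 22.92% for Dnaja1, 29.35% for Hspa8, 49.29% for Hspe1 and 55.25% for Hspd1. The cytosolic genes thus lost a larger share than the mitochondrial pair in these means, a difference between genes that was not tested. Markers of other cell types moved over the same 6h: 10 of 11 tested erythroid markers were lower in dbko, 10 of 11 in cko and 4 of 11 in wt, with sums of 269 and 122 CPM at 6h against 1764 and 856 CPM at 0h in dbko. Macrophage markers were lower for 1 of 11 in dbko, 1 of 11 in cko and 9 of 11 in wt, with sums of 37.3 and 35.0 CPM at 6h against 137 and 141 CPM at 0h in wt. B cell markers were lower for 7 of 10 in dbko, 8 of 10 in cko and 8 of 10 in wt, at medians of -0.67, -0.87 and -1.19. The part of these markers in the fall of the chaperones was not tested.

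The falls were steepest in cko, which also stood highest at 0h. Hsph1 changed by -3.15 ± 0.17 in dbko, -5.05 ± 0.18 in cko and -2.70 ± 0.17 in wt, and the level left was 11.22% of 0h in dbko, 3.01% in cko and 15.37% in wt. Dnaja1 changed by -2.02 ± 0.10 in dbko, -3.30 ± 0.11 in cko and -2.13 ± 0.10 in wt. Hspd1 changed by -0.89 ± 0.13 in dbko, -2.16 ± 0.13 in cko and -0.86 ± 0.13 in wt. The dbko and wt values of these 3 genes lie close together and the cko values apart. Not all members were split so. Zfand2a changed by -2.07 ± 0.13 in dbko, -3.23 ± 0.13 in cko and -2.78 ± 0.13 in wt, with wt nearer to cko. Dnajb1 changed by -2.57 ± 0.16 in dbko, -3.61 ± 0.17 in cko and -3.08 ± 0.16 in wt, with wt between the others.

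Tested as a difference of responses, 5 members fell further in cko than in wt, where 1.15% of genes were called lower and 0.554% higher. They were Hsph1 at -2.35 ± 0.22 (adjusted p = 0.000572), Hspd1 at -1.31 ± 0.18 (0.00635), Dnaja1 at -1.18 ± 0.14 (0.0026), Hspa8 at -0.95 ± 0.17 (0.0178) and Hsp90aa1 at -0.87 ± 0.19 (0.0405). All 10 estimates were below 0 in both lanes, with Hspa1b at -2.94 ± 0.81 (adjusted p = 0.113) and Hspe1 at -0.81 ± 0.22 (0.0887), Dnajb1 at -0.53, Dnajb4 at -0.52 and Zfand2a at -0.45. A difference of responses joins the genotype difference at 0h with that at 6h, from the same libraries. The 5 were also called higher in cko at 0h, and at 6h only Hsph1 was called between cko and wt. Response calls of Hsph1 and Dnaja1 held without any single library of the 8. That of Hspd1 ended without wt 0h replicate 1 (adjusted p = 0.0642). That of Hsp90aa1 ended without any of the 8, at 0.064 without cko 6h replicate 1 to 0.219 without wt 6h replicate 2. That of Hspa8 ended without either cko 0h, either wt 0h or either wt 6h library, at 0.0655 without wt 6h replicate 1 to 0.124 without wt 0h replicate 1.

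Against cko, the fall was smaller in dbko for 6 members, where 0.586% of genes were called higher and 0.348% lower. They were Hsph1 at 1.90 ± 0.22 (adjusted p = 0.00362), Dnaja1 at 1.28 ± 0.14 (0.00284), Hspd1 at 1.27 ± 0.18 (0.00675), Hspa8 at 1.25 ± 0.17 (0.00495), Zfand2a at 1.16 ± 0.17 (0.0104) and Dnajb1 at 1.04 ± 0.22 (0.0429). Those of Hsph1, Dnaja1 and Hspa8 held without any single library. The call of Hspd1 ended without cko 0h replicate 2 (adjusted p = 0.0569), and that of Zfand2a without cko 0h replicate 1 (0.0524), cko 0h replicate 2 (0.0695) or cko 6h replicate 1 (0.0506). That of Dnajb1 ended without dbko 0h replicate 1 (0.118), cko 0h replicate 1 (0.182) or 2 (0.187), or cko 6h replicate 1 (0.165) or 2 (0.0553). With the 8 dbko and cko libraries fitted alone, none of the 6 was called, at adjusted p of 0.0856 for Hsph1 to 0.378 for Dnajb1. In the main fit the 6 were also called lower in dbko than in cko at 0h, in libraries that both tests share.

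Between dbko and wt the 6h responses differed for Zfand2a alone among the members, at 0.71 ± 0.17 (adjusted p = 0.0195), where 6.9% of genes were called higher and 6.94% lower. That call ended without wt 0h replicate 1 (0.0585), wt 0h replicate 2 (0.0801) or wt 6h replicate 1 (0.095). Nor was Zfand2a called with the dbko and wt libraries of 0h and 6h fitted alone (adjusted p = 0.0562 by edgeR's test). A call of 1 of 10 members is near the share of all genes called. The other estimates ran from -0.59 ± 0.80 for Hspa1b to 0.51 ± 0.22 for Dnajb1.

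**Figure D3:**
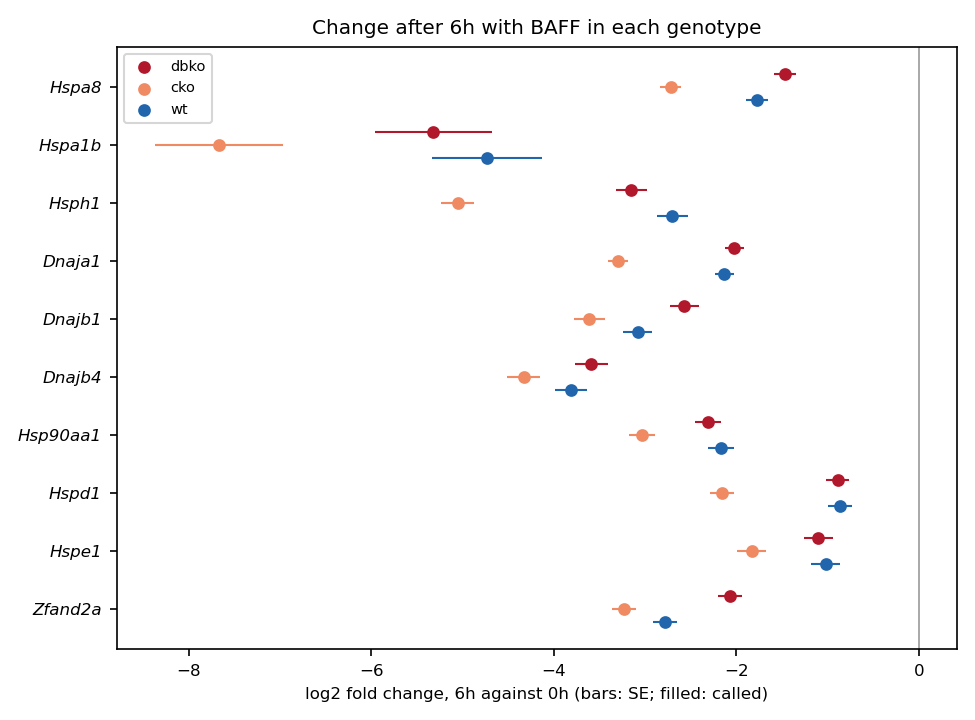
Log2 fold change of each member at 6h against 0h (x axis) in dbko, cko and wt, with bars for the SE; all points are filled because all had an adjusted p under 0.05. For each gene the cko point lies furthest left, from -1.83 for Hspe1 to -7.67 for Hspa1b.

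At 6h few members were called between genotypes. In cko against wt Hsph1 was lower at -0.79 ± 0.16 (adjusted p = 0.0164), the only member called, where 1.96% of genes were called lower and 1.58% higher, while 5 members had an unadjusted p under 0.05 and DESeq2 called 3. Hspa1b had the largest 6h estimates and was not called, at -1.53 ± 0.63 in dbko (adjusted p = 0.101) and -1.67 ± 0.64 in cko (0.205) against wt. The Hsph1 call in cko ended without cko 6h replicate 1 (0.0606), cko 6h replicate 2 (0.11), wt 6h replicate 1 (0.0772) or wt 6h replicate 2 (0.208). In dbko against wt Zfand2a was higher at 0.55 ± 0.13 (adjusted p = 0.00832), where 15.2% were called higher, and Hsph1 was lower at -0.54 ± 0.16 (0.0243), where 11.5% were called lower. The Zfand2a call ended without dbko 6h replicate 1 (0.0546) or wt 6h replicate 1 (0.0896), and the Hsph1 call without dbko 6h replicate 1 (0.191), wt 6h replicate 1 (0.0638) or wt 6h replicate 2 (0.174). In dbko against cko Hspa8 was higher at 0.52 ± 0.12 (adjusted p = 0.0137) and Zfand2a at 0.53 ± 0.13 (0.0173), where 8.77% were called higher and 4.66% lower. The Hspa8 call ended without cko 6h replicate 1 (0.0953), and the Zfand2a call without dbko 6h replicate 1 (0.111) or cko 6h replicate 1 (0.125). In dbko against wt, 1 of 10 members in each direction is near the share of all genes called. Beside these 6h differences, 11 of 11 macrophage and 11 of 11 erythroid markers were higher in dbko than in cko and than in wt. Macrophage markers summed to 231 and 88.3 CPM in dbko, 30.3 and 29.6 CPM in cko and 37.3 and 35.0 CPM in wt, and erythroid markers to 269 and 122 CPM in dbko, 8.97 and 11.4 CPM in cko and 9.61 and 11.5 CPM in wt. Their part in the chaperone differences was not tested.

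By 27h in wt the members had parted. At 27h 9 of 10 were still lower than at 0h, where 24.6% of genes were called lower and 23% higher, and Hspd1 was not called, at -0.15 ± 0.12 (adjusted p = 0.352). The level left at 27h was 0.24% of 0h for Hspa1b, 6.06% for Dnajb4, 12.37% for Zfand2a, 12.50% for Dnajb1 and 21.05% for Hsph1, against 56.53% for Hspa8, 74.67% for Hspe1 and 90.23% for Hspd1. The call of Hspe1, at -0.42 ± 0.15 (adjusted p = 0.0388), ended without wt 0h replicate 1 (0.125) or 2 (0.127), or wt 27h replicate 1 (0.107) or 2 (0.168).

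From 6h on, 5 members were higher at 27h than at 6h in wt, where 15.9% of genes were called higher. Hspa8 was higher by 0.95 ± 0.12 (adjusted p = 0.000117), Hspd1 by 0.71 ± 0.13 (0.00124), Hsp90aa1 by 0.66 ± 0.13 (0.00275), Hspe1 by 0.60 ± 0.16 (0.0115) and Hsph1 by 0.45 ± 0.16 (0.0415). Hspa1b alone was lower, at -3.98 ± 0.82 (adjusted p = 0.00537), where 18.2% were called lower. Dnaja1, Dnajb1, Dnajb4 and Zfand2a were not called, with estimates of -0.24 to 0.27. The Hsph1 call ended without wt 6h replicate 1 (0.24) or 2 (0.0937), or wt 27h replicate 1 (0.0912) or 2 (0.221). The Hspe1 call ended without wt 6h replicate 1 (0.114) or wt 27h replicate 1 (0.0752), and the Hspa1b call without wt 27h replicate 2 (0.0522).

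**Figure D4:**
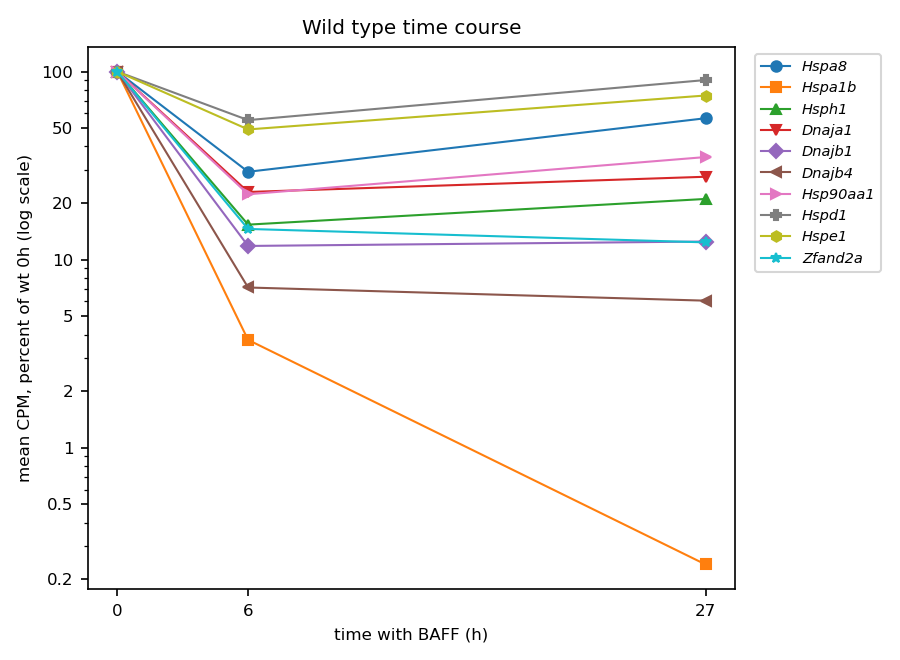
Mean CPM of each member in wt as a percent of its 0h mean (log axis) against time with BAFF in hours, 2 libraries per time. At 6h Hspd1 keeps 55.25% and Hspa1b 3.75%, and at 27h Hspd1 stands at 90.23% and Hspa1b at 0.24%.

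Transcripts of the heat shock factors showed no called difference at 0h. Hsf1, the main activator of heat shock genes, stood at 60.8 and 62.0 CPM in dbko, 66.8 and 60.8 CPM in cko and 67.9 and 68.8 CPM in wt at 0h, and the difference of cko from wt was -0.10 ± 0.15 (adjusted p = 0.855). Hsf2 differed by 0.12 ± 0.14 (0.794), Hsbp1, which encodes a binding protein that restrains HSF1, by -0.28 ± 0.12 (0.335), and Ier5, which encodes an HSF1 partner, by -0.15 ± 0.16 (0.754). Of the 5 tested of 7 listed genes, none was called in cko against wt at 0h by edgeR's test or by DESeq2, and 1 had an unadjusted p under 0.05. At 6h in wt Ier5 fell by 1.48 on the log2 scale (adjusted p = 1.77e-05), to 192 and 210 CPM against 553 and 572 CPM at 0h. Hsf4 rose by 1.65 ± 0.62 (0.0434) at very low levels, 0.824 and 1.10 CPM at 6h against 0.313 and 0.290 CPM at 0h, a call that ended without any of the 4 libraries, at an adjusted p of up to 0.194. Hsf1 had an estimate of 0.31 ± 0.15 (0.115) there. Later it was called lower in wt at 27h than at 6h, at -0.64 ± 0.15 (0.00732), beside 18.2% of all genes. In dbko against wt at 6h Hsf1 was lower at -0.56 ± 0.15 (0.0182) and Hsbp1 higher at 0.48 ± 0.12 (0.011). Of all genes 11.5% were called lower and 15.2% higher there. These calls of Hsf1 and Hsbp1 ended in fits with a library left out. Hsf5 and Hsbp1l1 stood at 0.317 CPM or less in every library and were not tested.

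Of 16 genes of HSP90 and its cochaperones 4 were higher and none lower in cko against wt at 0h (0.918% and 0.578% of all genes), with a list median of 0.40. Ahsa2 differed by 1.04 ± 0.13 (adjusted p = 0.00149), Ahsa1, which activates the HSP90 ATPase, by 0.74 ± 0.13 (0.011) and Chordc1 by 0.67 ± 0.12 (0.0112). Ahsa1 stood at 281 and 291 CPM in cko against 167 and 177 CPM in wt. Of these 3 calls that of Ahsa2 held without any single library, and those of Ahsa1 and Chordc1 ended at adjusted p of up to 0.192. Over 6h in wt 2 of the 16 rose and 6 fell (22.6% and 23.5% of all genes), with the cyclophilin gene Ppid at 1.39 ± 0.17, Cdc37l1 at 0.92 ± 0.18 and Hsp90ab1, the constitutive HSP90, at -0.60 ± 0.13. The 6h fall in cko exceeded that in wt for 4 of the 16, beside 1.15% of all genes. None differed the other way, beside 0.554%. Among the 4 were Ahsa2 at -1.13 ± 0.19 (adjusted p = 0.015), Ahsa1 at -0.86 ± 0.18 (0.0337) and Chordc1 at -0.74 ± 0.16 (0.0434), calls that ended in fits with a library left out.

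Among other HSP70 and HSP110 genes 1 of 7 tested was higher and none lower in cko against wt at 0h, beside 0.918% and 0.578% of all genes. It was Hspa4l, an HSP110 relative, at 0.79 ± 0.11 (adjusted p = 0.00295), a call that ended in fits with a library left out. Hspa4l stood at 41.7 and 43.0 CPM in dbko, 44.8 and 46.3 CPM in cko and 26.7 and 26.1 CPM in wt at 0h. Over 6h in wt 2 of the 7 rose, near the 22.6% of all genes, and 3 fell, against 23.5%, Hspa1a at -4.19 ± 0.71, Hspa2 at -1.64 ± 0.33 and Hspa12a at -3.80 ± 0.54. Of 14 other cytosolic J-domain genes 1 was higher and none lower in cko at 0h, beside 0.918% and 0.578% of all genes. It was Dnaja4 at 1.68 ± 0.31 (0.0172), a call that ended with any single library left out. Dnaja4 stood at 15.0 and 9.58 CPM in dbko, 11.9 and 10.4 CPM in cko and 3.44 and 3.49 CPM in wt at 0h. Over 6h in wt 4 of the 14 rose and 4 fell, near the 22.6% and 23.5% of all genes, with Dnaja4 at -2.94 ± 0.42 and Dnajc13 at 0.73 ± 0.12. Of 10 HSP70 exchange and binding factors 2 were higher and none lower in cko at 0h, beside 0.918% and 0.578% of all genes. They were Bag3, a stress-induced exchange factor, at 1.56 ± 0.26 (0.00992, up to 0.192) and St13 at 0.54 ± 0.11 (0.025, up to 0.294). Bag3 stood at 24.0 and 22.7 CPM in cko against 7.30 and 8.52 CPM in wt. At 6h in wt it was lower than at 0h by 2.03 ± 0.30 as 1 of 10, while 3 rose (23.5% and 22.6% of all genes).

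Hspb1, which encodes the small heat shock protein HSP27, showed the largest cko excess of the named partners, at 2.15 ± 0.39 (adjusted p = 0.0165, up to 0.245 with a library left out). It stood at 24.0 and 20.0 CPM in cko against 4.59 and 5.33 CPM in wt at 0h. Of 3 tested small heat shock genes it was the 1 called higher and none was lower, beside 0.918% and 0.578% of all genes. At 6h in wt Hspb1 fell to 0.366 and 0.594 CPM, by -3.33 ± 0.53 on the log2 scale. In wt over 6h Hspb6 rose at 1.37 ± 0.31 and Hspb11 fell at -0.74 ± 0.23, a call that ended at up to 0.147 with a library left out.

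Among chaperones of other kinds, none of 14 TRiC and prefoldin subunits, 17 mitochondrial chaperones and proteases and 14 ER chaperones was called in cko against wt at 0h in edgeR's test, with list medians of 0.21, 0.02 and 0.16. Unadjusted p was under 0.05 for 4, 2 and 3 of them, and DESeq2 called 0, 1 and 3. Over 6h in wt 8 of the 17 mitochondrial genes rose and none fell, beside 22.6% and 23.5% of all genes, and the members Hspd1 and Hspe1 fell. Hspa9, the mitochondrial HSP70, rose by 0.77 ± 0.14 (adjusted p = 0.00076), the protease gene Lonp1 by 1.05 ± 0.16 (0.000247) and Dnaja3, which encodes a J-domain partner of Hspa9, by 0.63 ± 0.15 (0.00346). Of the 14 TRiC and prefoldin genes 4 rose and 2 fell, near the 22.6% and 23.5% of all genes, with Pfdn6 at 0.59 ± 0.14, Pfdn5 at -0.70 ± 0.17 and Pfdn1 at -0.61 ± 0.15, of which those of Pfdn6 and Pfdn5 ended at 0.0561 and 0.0525 without 1 library.

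Of the 14 ER chaperones 2 rose and 9 fell over 6h in wt, beside 22.6% and 23.5% of all genes, among them Hspa5, which encodes BiP, at -1.93 ± 0.14 (adjusted p = 9.13e-07), its J-domain partner Dnajb9 at -3.23 ± 0.24 and Calr at -0.97 ± 0.12. At 27h 11 of the 14 were higher and 1 lower than at 6h in wt, beside 15.9% and 18.2% of all genes. Hspa5 stood at 2376 and 2813 CPM in dbko, 3289 and 3499 CPM in cko and 2525 and 2557 CPM in wt at 0h, and its difference of cko from wt was 0.42 ± 0.14 (0.181).

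Immediate early genes, whose transcripts appear within minutes of a stimulus, were also high at 0h but stood in another order of genotypes. Summed over 19 genes they reached 8260 and 13548 CPM in dbko, 16126 and 16096 CPM in cko and 20524 and 20771 CPM in wt at 0h. Over 6h in wt 18 of the 19 fell, beside 23.5% of all genes, with Atf3 at -5.23 ± 0.17, Jun at -4.24 ± 0.21 and Dusp1 at -3.87 ± 0.13. In cko against wt at 0h 2 of the 19 were lower and none higher, beside 0.578% and 0.918% of all genes. These were Jun at -1.04 ± 0.18 (adjusted p = 0.0144) and Dusp1 at -0.73 ± 0.12 (0.00736), calls that ended with any single library left out. Among the chaperone members 6 were higher there. Their part in the chaperone differences was not tested.

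Among all other genes, the 5 whose group means most resembled the members' mean were ranked by Pearson correlation over the 7 groups and 8901 genes. They were Mrfap1 at 0.996, the ER chaperone gene Hspa5 at 0.988, Adnp2 and Fam53c at 0.987 each and Arf4 at 0.986. Over 6h Mrfap1 changed by -0.65 ± 0.15 in dbko, -1.15 ± 0.15 in cko and -0.69 ± 0.15 in wt, and Adnp2 by -2.23 ± 0.15 in dbko, -2.82 ± 0.15 in cko and -2.33 ± 0.15 in wt. In cko against wt at 0h the estimates of these 5 genes were 0.22 to 0.42, with adjusted p of 0.181 to 0.44.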

How the data were processed

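RNA from 14 libraries of mouse splenic follicular B cells, 2 in each of 7 groups, was sequenced. The values are whole-number counts of reads per Ensembl gene deposited by the authors, 1 table per library. CASAVA 1.8.2 is named in the submitters' processing notes, while aligner, counter, strand setting and genome build were not given in the sources used here. Symbols came from GENCODE M21 (37607 of 39179 IDs matched, holding at least 99.47% of the gene counts), and coordinates from the same annotation on GRCm38. Rows of unassigned reads stayed out of library sizes (5.21 to 11.46% of reads without a feature, 0.41 to 0.49% ambiguous).

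Counts were filtered with filterByExpr (12630 genes left), scaled by TMM and tested with edgeR 4.0.16 in R 4.3.3 by the quasi-likelihood test, with 1 mean per group over all 14 libraries and 7 residual degrees of freedom, two-sided and Benjamini-Hochberg adjusted over all genes, called under 0.05. CPM per kb used the principal transcript. On simulated data for wt at 6h against 0h, 53 of 98 genes changed by 1 and 80 of 98 changed by 2 on the log2 scale were called, all in the right direction, and 7 of 12086 unchanged genes were called. Alternatives were DESeq2 1.42.0, its size factors in edgeR, no filter, a replicate block, the compared groups alone, each library left out and both dbko replicate 1 libraries left out. Replicates 1 and 2 were run in lanes 7 and 8. Named were all members, up to 3 called genes with the smallest adjusted p per list in 3 comparisons, all heat shock factor genes and the 5 genes of most like pattern. The members and lists were chosen with earlier results of these data known.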

Additional observations from a re-analysis of the deposited data

Results flagged for a closer look

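For 12 values the change of a member over 6h differed between genotypes by the test of the difference itself, as log2 differences. The fall in cko exceeded that in wt for Hsph1 at -2.35, Hspd1 at -1.31, Dnaja1 at -1.18, Hspa8 at -0.95 and Hsp90aa1 at -0.87. The change in dbko differed from that in wt for Zfand2a at 0.71, and 1 of 10 members is near the share of all genes called there. The fall in dbko was smaller than that in cko for Hsph1 at 1.90, Dnaja1 at 1.28, Hspd1 at 1.27, Hspa8 at 1.25, Zfand2a at 1.16 and Dnajb1 at 1.04. Of all genes 1.15% were called lower and 0.554% higher for cko against wt. For dbko against wt 6.9% were called higher and 6.94% lower, and for dbko against cko 0.586% and 0.348%. Without any single library, only Hsph1 and Dnaja1 held for cko against wt, and Hsph1, Dnaja1 and Hspa8 for dbko against cko. With only the compared groups fitted, 9 members were called for cko against wt and none in either dbko comparison. The comparisons share libraries.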

How the results depend on the processing

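Of 1450 recomputed member values, 1308 stayed on the same side of the threshold, among them the 43 that changed sign and were called under neither setting, while 84 lost the call, 57 gained one and 1 reversed: Hspa1b in dbko against cko at 6h, -2.15 (adjusted p = 0.0261) without dbko 6h replicate 2 and up to 0.97 with another library left out, against 0.14. With DESeq2's size factors in edgeR all 140 stayed on the same side of the threshold, and 1 uncalled value changed sign. The causes of the moves listed here were not tested, beyond the smaller number of libraries in the fits that leave some out. Deviations of replicate 1 from the group mean were correlated above 0.1 for 4 of 21 pairs of groups (-0.17 to 0.48). The highest, 0.48, was that of dbko at 0h with dbko at 6h, against 0.10 in cko and 0.03 in wt for the same times. The main fit treated all libraries as unpaired, those of dbko included. The replicate block gave calls to 2 values, Hspe1 in cko against wt at 0h (0.62) and Dnajb1 in dbko against wt at 0h (-0.50), so 1 member was called in the second comparison under the block, against 0.

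With only the compared groups fitted, genes called numbered 7531 for wt 27h against 6h, 1323 for dbko 6h against 0h, 2660 for cko against wt, 416 for dbko against wt and 545 for dbko against cko at 0h. They numbered 1075 for dbko against wt and 190 for dbko against cko at 6h, and 1292 for the responses of cko against wt, 650 for dbko against wt and 1 for dbko against cko. Members called were then 10 for cko against wt at 0h, 2 for cko against wt, 0 for dbko against wt and 0 for dbko against cko at 6h, and 9, 0 and 0 for the 3 differences of response in that order. With no filter on low counts, genes called were 648, 2361 and 2124 for cko against wt, dbko against wt and dbko against cko at 0h, 1030 for cko against wt at 6h, 654 for the response of cko against wt and 576 for dbko against cko. Members called were then 10, 2, 2 and 10 for cko against wt and dbko against wt at 0h, cko against wt at 6h and the response of dbko against cko. DESeq2 called 373 genes for cko against wt at 0h, 494 for the response of cko against wt and 258 for dbko against cko, and 2 and 3 members for dbko against wt at 0h and cko against wt at 6h. Without both dbko replicate 1 libraries 1 member was called for dbko against wt at 0h (Hspa1b at -1.26), 1 at 6h and 2 for the response, and 288 genes for the response of dbko against cko.

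Leaving out each library in turn gave these ranges of calls. Wt 27h against 6h had 2100 to 2345 genes. Cko against wt at 0h had 3 members in each fit and 38 to 48 genes. Dbko against wt at 0h had 0 to 2 members and 445 to 3090 genes, and dbko against cko 5 to 10 members and 227 to 3015 genes. At 6h cko against wt had 0 members in each fit and 70 to 434 genes, dbko against wt 0 to 4 members and 1296 to 4210 genes, and dbko against cko 0 to 3 members and 559 to 3019 genes. The response of cko against wt had 2 to 4 members and 9 to 409 genes, dbko against wt 0 to 3 members and 595 to 2634 genes, and dbko against cko 3 to 8 members and 12 to 682 genes. Depth limits Hspa1b most, with 16 and 12 reads in wt at 27h.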

Other observations

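Of 11 tested genes of other heat-inducible functions and protein turnover, 2 rose and 4 fell over 6h in wt, where 22.6% of all genes were called higher and 23.5% lower. Dedd2 stood at 40.2 and 39.6 CPM at 6h against 140.5 and 134 CPM at 0h, a change of -1.78 ± 0.18 (adjusted p = 1.14e-05 by edgeR's quasi-likelihood test), and Ubb changed by -1.61 ± 0.14 (4.27e-06). None of the 11 was called in cko against wt at 0h by edgeR, where 3 had an unadjusted p under 0.05 and DESeq2 called 1.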
